A study of Mus musculus with 6 samples.

Results

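The genes of the respiratory chain and of the mitochondrial genome were examined in RNA-seq libraries of mouse Sertoli cells, the somatic cells that support germ cells in the seminiferous tubule. Members were chosen by name among genes annotated as protein-coding: the mt- genes of the mitochondrial genome, the Nduf, Sdh, Uqcr, Cox and Atp5 genes, Cyc1 and Cycs. The rule gave 108 of the 28262 genes in the count table, of which 95 are encoded in the nucleus and 13 in the mitochondrial genome. The rule itself uses no measured value, but it was chosen with earlier results of these data known. Of the members, 102 passed the filter on low counts and were tested, 90 nuclear-encoded and 12 mitochondrially encoded. The other 6 were mt-Atp8, Cox4i2, Cox7b2, Cox8b, Cox8c and Ndufa4l2.

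The cells were isolated from testes of C57BL/6 mice at 20 days of age, and 3 libraries were made from each of the control Pa1F/F and the knockout Amh-pa1-/- genotype. Both genotypes carry floxed Pa1 alleles, labelled PA1flox/flox in the controls, and in Amh-pa1-/- mice, labelled PA1-/-, these are deleted by a Cre recombinase under the Sertoli cell promoter of Amh, so that other cells of the preparation keep the gene. Pa1 encodes a subunit of the MLL3/MLL4 histone methyltransferase complexes. Its own reads were not analysed here, so the labels alone give the genotypes. The study's methods speak of biological replicates, but no source used here says whether each library came from separate mice, and the p-values measure the spread between these libraries.

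The respiratory chain passes electrons from NADH (complex I) and succinate (complex II) through complex III and the mobile carrier cytochrome c to oxygen at complex IV, and complex V uses the resulting proton gradient to make ATP. Complexes I, III, IV and V are assembled from subunits of 2 genomes, whereas complex II is wholly nuclear-encoded. Sertoli cells of the maturing testis are known for glycolysis that supplies lactate to germ cells, while they oxidise fatty acids in their own mitochondria.

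Total counts on genes lay between 13203757 and 16231443 per library. Pa1F/F replicate 2 and Amh-pa1-/- replicate 3 stood apart from the other libraries of their genotype, and results were therefore also computed without them. They were picked for this distance. Leaving both out thus narrows the spread within genotypes by choice and lowers the p-values of that setting. The Sertoli cell markers Sox9 and Wt1 stood at 316 ± 23.6 and 346 ± 6.45 CPM (read counts scaled to a common library size, normalized across libraries) in Pa1F/F and at 292 ± 65.8 and 377 ± 62.1 CPM in Amh-pa1-/- cells (SD, n = 3). Of 13 tested Sertoli cell markers 4 were lower and none was higher, beside 17.1% and 18.2% of all tested genes. Gata4 was among the lower, at 526 ± 35.4 and 285 ± 10.4 CPM (log2 fold change −0.88, adjusted p = 0.00033 by edgeR's quasi-likelihood test). Amh had 12.63, 17.25 and 12.2 CPM in Pa1F/F and 2.99, 3.29 and 24.8 CPM in Amh-pa1-/- libraries and did not pass. The sum of the list was 17080 to 17360 CPM in Pa1F/F and 10650 to 13450 CPM in Amh-pa1-/- libraries. Clu alone held 13090 to 13200 CPM of the former and 7188 to 9951 CPM of the latter. Markers of other testicular cells moved with genotype. Summed CPM of 9 macrophage markers was 54.1 to 68.0 in Pa1F/F and 12.2 to 18.2 in Amh-pa1-/- libraries, that of 7 Leydig cell markers 838 to 933 and 177 to 333, that of 6 peritubular myoid markers 222 to 283 and 828 to 1268, and that of 5 endothelial markers 116 to 122 and 63.9 to 101. Of those lists, 5, 3, 0 and 2 genes were lower and 1, 0, 1 and 1 were higher at an adjusted p under 0.05. Of the 7 Leydig cell markers 4 were tested. Cyp17a1 and Insl3 had at most 3 counts in any library, so the Leydig sum came from other genes of the list. The myoid sum was carried by Acta2, which stood at 213, 172 and 220.2 CPM in the Pa1F/F and at 837, 808 and 1046 CPM in the Amh-pa1-/- libraries. Myh11, Des and Actg2 were below every Pa1F/F library in Amh-pa1-/- replicates 1 and 2 and above all of them in replicate 3, as for Myh11 with 44.1, 32.7 and 39.4 against 14.7, 11.2 and 109 CPM. The part of these cells in the results below was not tested, and in bulk RNA fewer cells of a type and less RNA per cell cannot be told apart.

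Most nuclear-encoded members differed little between the genotypes. By edgeR's quasi-likelihood test at an adjusted p under 0.05, 16 of 90 (17.8%) were higher and 5 (5.56%) were lower in Amh-pa1-/- cells, against 18.2% higher and 17.1% lower among all 14919 tested genes. With all 6 libraries the share of higher members was thus near that of all genes, and the share of lower members was below it. Their median log2 fold change was 0.07, beside 0.00 over all tested genes. Of the 90, 83 (92.2%) had an estimate within 0.5 of no change on the log2 scale, beside 67.1% of all tested genes. The 95% confidence interval lay wholly within 0.5 for 68 members (75.6%), as compared with 35.3% of all tested genes. Among genes with a mean of at least 10 CPM the corresponding shares were 81.7% of 82 members and 51.5% of 9738 genes. Only Cox6b2 and Cox7a1, 2 of 102 members, passed the adjusted p and also changed by 1 or more on the log2 scale, whereas 12.0% of all tested genes did.

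Of the 12 tested mitochondrially encoded members 10 had an estimate below 0, as did 7435 of all 14919 tested genes. None was higher and 2, mt-Co2 and mt-Atp6, were lower (16.7%, beside 17.1% of all tested genes), with a median log2 fold change of −0.19. The difference between the medians of the mitochondrially and the nuclear-encoded members was −0.26, and it lay between −0.35 and −0.22 when each library was left out in turn. CPM values of the 3 Amh-pa1-/- libraries did not overlap those of the 3 Pa1F/F libraries for 43 nuclear-encoded members, 33 of them higher and 10 lower, and for 6 mitochondrially encoded members, 1 higher (mt-Nd1) and 5 lower. Across all tested genes 52.4% did not overlap, 26.3% higher and 26.1% lower, beside 36.7% and 11.1% of the nuclear-encoded members. With 3 libraries a genotype, an exact two-sided permutation test of a single gene cannot give a p below 0.1.

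**Figure D1:**
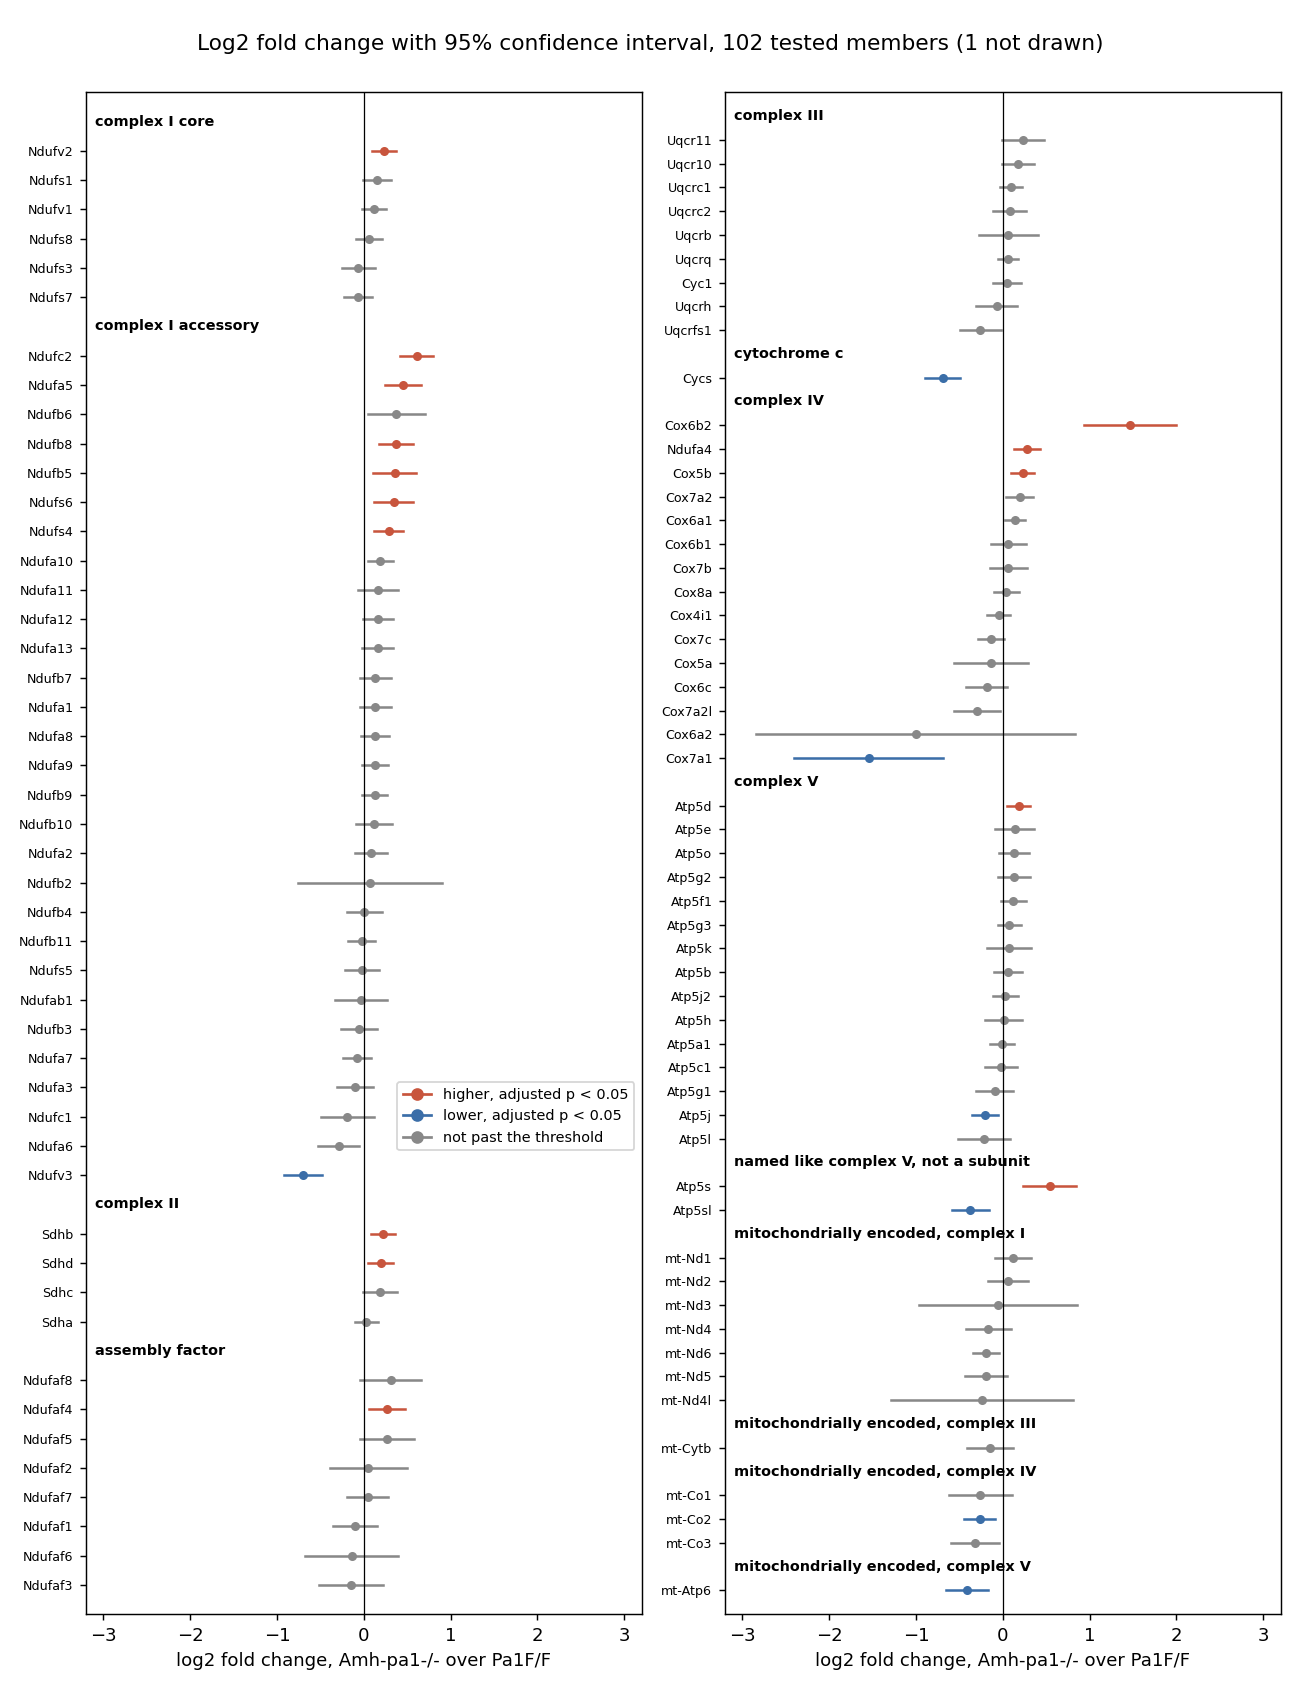
Log2 fold change of Amh-pa1-/- over Pa1F/F (x axis) with its 95% confidence interval for the 102 tested members (1 not drawn), grouped by complex and genome; red marks members called higher, blue those called lower (adjusted p under 0.05) and grey the others. Most points lie within 0.5 of 0. Cox6b2, Cox7a1 and the uncalled Cox6a2 (−1.003) lie beyond 1. Of the 12 mitochondrially encoded members 10 lie below 0, as do 7435 of all 14919 tested genes.

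The number of calls depended on single libraries. Without Pa1F/F replicates 1, 2 and 3, 5, 10 and 4 nuclear-encoded members were higher, and without Amh-pa1-/- replicates 1, 2 and 3, 4, 7 and 19 were. The counts of lower nuclear-encoded members were 2, 4, 4, 2, 3 and 5 in the same order, and those of lower mitochondrially encoded members 0, 5, 1, 0, 1 and 4. Calls over all genes changed too, to between 11.5% and 21.9% higher and between 11.1% and 21.2% lower. Without Pa1F/F replicates 1 and 3 and Amh-pa1-/- replicates 1 and 2, 5.56%, 4.44%, 4.44% and 7.78% of nuclear-encoded members were higher, below the 11.6%, 11.5%, 12.9% and 13.5% of all genes. Without Pa1F/F replicate 2 the member share was 11.1%, also below that of all genes, and it was near that of all genes without Amh-pa1-/- replicate 3 (21.1% and 21.9%). With both libraries that stand apart left out, 34 nuclear-encoded members (37.8%) were higher and 9 lower, and 2 mitochondrially encoded members were higher and 8 lower, while 28.0% and 27.3% of all genes were then called in the 2 directions. With the counts of the close pairs of libraries summed, only Ndufc2 and Cox6b2 of all members were called, both higher, and 4.43% of all genes were higher and 4.22% lower. Of the 23 members called with all libraries, 5 were called under every omission of 1 library: Cycs and Ndufv3, which were lower, and Ndufc2, Ndufa5 and Cox6b2, which were higher.

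**Figure D2:**
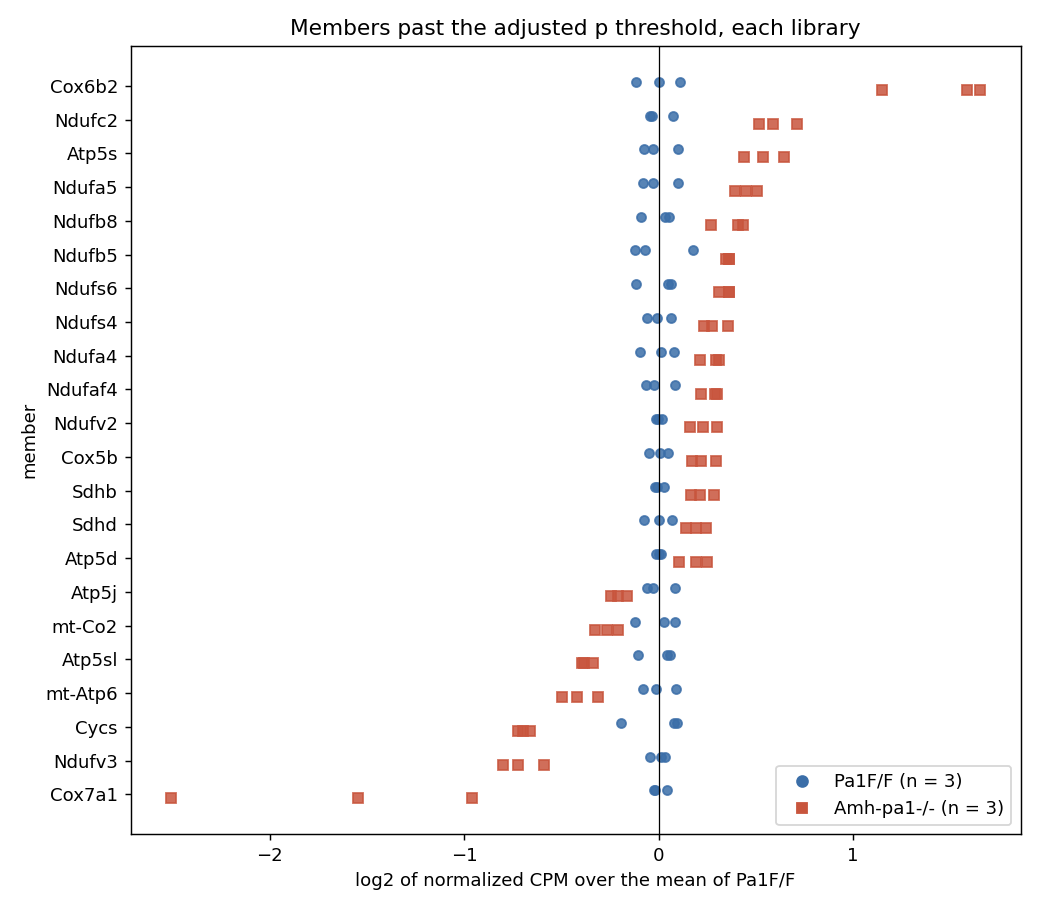
Log2 of the normalized CPM over the Pa1F/F mean (x axis) of the 23 members past the adjusted p threshold (1 not drawn), with 1 point for each library (circles, Pa1F/F; squares, Amh-pa1-/-; n = 3 each). The groups do not overlap for any of them, which follows in part from choosing the genes on these libraries.

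Complex I, the NADH dehydrogenase, had the most members. Of 7 nuclear-encoded core subunits, which carry the flavin and the iron-sulfur clusters, 2 were higher and 5 did not pass the test (median log2 fold change 0.12). Of 29 accessory subunits, which surround the core and stabilise it, 6 were higher, 1 was lower and 22 did not pass (median 0.13). The share of higher genes over these 36 subunits was 22.2%, close to the 18.2% of all genes. The share of lower genes was 2.78%, below the 17.1% of all genes.

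Ndufc2, an accessory subunit of the membrane arm (chr7:97400003-97407802, plus strand, GRCm38), showed the largest rise in complex I. It stood at 31.7, 34.5 and 32.0 CPM in the 3 Pa1F/F libraries and at 49.2, 46.8 and 53.6 CPM in the 3 Amh-pa1-/- libraries. All knockout libraries were above all control libraries, and the log2 fold change was 0.61 ± 0.08 (SE, adjusted p = 0.0021). The gene overlaps Gm16053, and since no source used here gives the strand setting of the counting, reads of the 2 cannot be told apart. Ndufa5, an accessory subunit of the matrix arm, rose from 19.5 ± 1.27 to 26.6 ± 1.07 CPM (SD, n = 3; log2 fold change 0.45 ± 0.09 SE, adjusted p = 0.0088). Ndufb8, of the membrane arm, was at 28.3 ± 1.52 and 36.7 ± 2.18 CPM (log2 fold change 0.37, adjusted p = 0.014) and kept its call under 5 of 6 omissions, the exception being Pa1F/F replicate 3 (adjusted p = 0.058).

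The remaining rises in complex I were small. Ndufb5, Ndufs6 and Ndufs4 had log2 fold changes of 0.36, 0.34 and 0.29, and the core subunit Ndufv2 of 0.23. Ndufv2, which holds an iron-sulfur cluster, had 68.3, 66.9 and 67.3 CPM in the controls and 83.2, 79.1 and 75.4 CPM in the knockout libraries, with an adjusted p of 0.023. Ndufs4 lost its call without Pa1F/F replicate 1 or 3 or Amh-pa1-/- replicate 1, Ndufb5 and Ndufs6 lost it without any of these 3 libraries or Amh-pa1-/- replicate 2, and Ndufv2 kept it only without Amh-pa1-/- replicate 3. Ndufb5 and Ndufs6 overlap the mitochondrial ribosomal protein genes Mrpl47 and Mrpl36, and Ndufv2 overlaps Gm23264.

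Ndufv3, a small accessory subunit next to the flavin-binding Ndufv1 and Ndufv2 (chr17:31520115-31531326, plus strand), was lower. It was at 22.3, 23.5 and 23.2 CPM in Pa1F/F and at 13.2, 13.9 and 15.3 CPM in Amh-pa1-/- cells. The ranges were far apart, and the log2 fold change was −0.70 ± 0.09 (SE, adjusted p = 0.0021). Ndufv1, the subunit that binds the flavin, stood at 63.8, 66.2 and 62.2 CPM in the controls and at 69.3, 71.2 and 67.8 CPM in the knockout libraries (log2 fold change 0.12, adjusted p = 0.16). Ndufv3 was the only complex I member that was lower at the threshold. Among the 8 Ndufaf genes, which encode assembly factors and not subunits, Ndufaf4 was higher (17.3 ± 0.907 and 20.9 ± 0.638 CPM, log2 fold change 0.27, adjusted p = 0.049), a call that no omission of 1 library kept (adjusted p from 0.055 to 0.15), and 7 did not pass.

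Complex II oxidises succinate and is also an enzyme of the tricarboxylic acid cycle. Its 4 genes all had estimates above 0. Sdhb, the iron-sulfur subunit, was at 67.9, 68.2 and 70.0 CPM in Pa1F/F and at 83.8, 79.6 and 77.2 CPM in Amh-pa1-/- cells, with no overlap (log2 fold change 0.22 ± 0.06 SE, adjusted p = 0.023). Sdhd, one of the membrane anchors, stood at 88.7 ± 4.48 and 101 ± 3.59 CPM (log2 fold change 0.19, adjusted p = 0.045). Both calls were kept only when Amh-pa1-/- replicate 3 was left out, and were lost without any of the other 5 libraries (adjusted p up to 0.086 for Sdhb and 0.14 for Sdhd). The other anchor, Sdhc, had 81.1 ± 7.52 and 92.2 ± 4.61 CPM (log2 fold change 0.18, adjusted p = 0.12), and was called higher without Pa1F/F replicate 2 (adjusted p = 0.033) and with both libraries that stand apart left out (adjusted p = 4.9e-05). The last value is lowered by the choice of those libraries. Sdha, the catalytic flavoprotein, had 220 ± 1.57 and 225 ± 12.6 CPM (0.03, adjusted p = 0.74).

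Complex III passes electrons from ubiquinol to cytochrome c. None of its 9 nuclear-encoded members passed the test, where 18.2% of all tested genes were higher and 17.1% lower. The confidence intervals of all 9 lay within 0.5 on the log2 scale. So did those of 35.3% of all tested genes and of 51.5% of genes with a mean of at least 10 CPM. Cyc1, which holds its cytochrome c1, was at 68.1 ± 2.29 and 70.5 ± 4.76 CPM (log2 fold change 0.05, adjusted p = 0.61). The lowest estimate was that of Uqcrfs1, the Rieske iron-sulfur protein, with −0.26, and it was called lower without Pa1F/F replicate 3 (adjusted p = 0.022). With both libraries that stand apart left out, 28.0% of all genes were called higher and 27.3% lower. Of the 9 members 6 were then called: Uqcr10, Uqcr11, Uqcrb, Uqcrc1 and Uqcrc2 were higher and Uqcrfs1 was lower.

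Cycs encodes somatic cytochrome c, the carrier between complexes III and IV and a trigger of apoptosis when it leaves mitochondria (chr6:50562563-50566538, minus strand). It had the lowest adjusted p of all members. Its level was 222, 182 and 220.0 CPM in the 3 Pa1F/F libraries and 132, 126 and 128 CPM in the 3 Amh-pa1-/- libraries. Knockout libraries lay close together and below every control library, of which replicate 2 was the lowest. The log2 fold change was −0.69 ± 0.08 (SE, adjusted p = 0.0015), and it stayed between −0.78 and −0.63 under every alternative tried. With the close pairs of libraries summed its adjusted p was 0.05003. Copies of at least 99% identity elsewhere in the genome cover 39.5% of its transcript, so the counts of reads from that stretch are uncertain.

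The promoters of the 5 members called under every omission are shown because these members moved in both directions. Each line gives the 150 bases before the RefSeq start (GRCm38.p6), 5′ to 3′ on the gene's strand. Capitals mark matches on either strand to GCGCATGC (part of the site of NRF1, a regulator of many respiratory genes), CCGGAAG (ETS factors such as GABPA), CCAAT (the CCAAT box), AAGATGG (YY1), AAGGTCA (ERRA) or TGACTCA (AP-1).
Cycs, chr6:50566570-50566719, minus strand: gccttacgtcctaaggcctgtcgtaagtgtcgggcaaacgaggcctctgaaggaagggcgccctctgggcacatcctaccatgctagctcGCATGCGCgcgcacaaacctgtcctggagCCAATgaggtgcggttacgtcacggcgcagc
Ndufv3, chr17:31519965-31520114, plus strand: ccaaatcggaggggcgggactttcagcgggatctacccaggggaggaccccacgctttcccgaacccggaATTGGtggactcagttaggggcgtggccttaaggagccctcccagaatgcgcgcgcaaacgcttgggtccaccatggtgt
Ndufc2, chr7:97399853-97400002, plus strand: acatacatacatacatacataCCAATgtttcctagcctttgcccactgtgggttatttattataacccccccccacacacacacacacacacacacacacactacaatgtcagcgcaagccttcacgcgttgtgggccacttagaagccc
Ndufa5, chr6:24527527-24527676, minus strand: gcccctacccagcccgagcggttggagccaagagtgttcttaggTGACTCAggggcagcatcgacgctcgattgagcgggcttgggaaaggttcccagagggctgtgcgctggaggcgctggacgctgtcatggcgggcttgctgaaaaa
Cox6b2, chr7:4753095-4753244, minus strand: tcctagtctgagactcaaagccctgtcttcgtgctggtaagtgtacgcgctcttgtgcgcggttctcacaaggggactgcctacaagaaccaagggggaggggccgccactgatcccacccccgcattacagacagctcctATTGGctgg

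In the Cycs promoter the NRF1 letters begin 60 bases before the start and the CCAAT box 31 bases before it. Ndufv3, Ndufc2 and Cox6b2 hold a CCAAT box in these 150 bases, and 1 of the 2 Ndufa5 windows, the one printed, holds the AP-1 letters 106 bases before its start. Windows of 300 bases (250 before and 50 after the start) were found for 78 of the 95 nuclear-encoded members, 84 windows in all. The NRF1 letters were in 15.5% of them, beside 4.93% of the windows of tested genes and 2.71% of all windows in the table. The other shares were, for members and for tested genes, 21.4% and 16.5% with CCGGAAG, 44.0% and 37.3% with CCAAT, 16.7% and 6.90% with AAGATGG, 9.52% and 3.33% with AAGGTCA, and 7.14% and 3.88% with TGACTCA. In the 150 bases before the start alone, AAGATGG was in 2.38% of member windows and 2.34% of those of tested genes, TGACTCA in 2.38% and 2.18%, and the NRF1 letters in 9.52% and 3.35%. Of the 13 members with the NRF1 letters, Sdhb and Ndufaf4 were higher, Cycs was lower and 10 did not pass (median log2 fold change 0.13), where 18.2% of all tested genes were higher and 17.1% lower. The call of Sdhb was kept under 1 of the 6 omissions of a library, that of Ndufaf4 under 0 and that of Cycs under 6. A match of letters is a description and not a bound site.

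Complex IV, cytochrome c oxidase, reduces oxygen, and several of its nuclear subunits exist as a broadly expressed gene and a partner restricted to some tissues. Of its 20 nuclear-encoded members 15 were tested, with 3 higher (20.0%, beside 18.2% of all tested genes), 1 lower (6.67%, beside 17.1%) and 11 not passing (median log2 fold change 0.04). Cox6b2, the partner of Cox6b1 known from testis, had the largest rise of all members (chr7:4751792-4753094, minus strand). It had 23, 20 and 17 counts in the Pa1F/F libraries and 44, 54 and 58 counts in the Amh-pa1-/- libraries, that is 1.32 ± 0.102 and 3.67 ± 0.655 CPM (SD, n = 3). The groups did not overlap, and the log2 fold change was 1.47 ± 0.22 (SE, adjusted p = 0.0034). Cox6b1 remained the main isoform, with 105 and 110 CPM per kb of transcript in the 2 genotypes, against 2.19 and 6.12 CPM per kb for Cox6b2. Cox6b1 itself was at 69.3 ± 2.67 and 72.5 ± 7.15 CPM (log2 fold change 0.07, adjusted p = 0.58). Germ cells also express Cox6b2. Of 7 spermatid markers 5 were in the table and none was tested, with a summed level of at most 0.461 CPM in Pa1F/F and 0.750 CPM in Amh-pa1-/- libraries, and Acrv1, Prm1, Tnp2 and Akap4 had at most 3 counts in any library. The fifth, Odf1, had 0, 1 and 0 counts in Pa1F/F and 3, 2 and 10 counts in Amh-pa1-/- libraries. The part of germ cells in the Cox6b2 counts was not tested. Summed spermatocyte markers lay between 1.17 and 1.71 and between 0.863 and 2.998 CPM, and of 6 spermatogonial markers 3 (Gfra1, Kit and Ddx4) were tested and all 3 were lower. Dazl, which was not tested, had 8, 8 and 16 against 9, 6 and 45 counts.

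Cox7a1, the partner of Cox7a2 known from heart and skeletal muscle, had the largest fall (chr7:30184144-30186078, plus strand). It had 31, 29 and 28 counts in the Pa1F/F libraries and 10, 13 and 5 counts in the Amh-pa1-/- libraries, with a log2 fold change of −1.54 ± 0.36 (SE, adjusted p = 0.017). The call was lost without Pa1F/F replicate 1 (adjusted p = 0.057), Pa1F/F replicate 3 (0.059) or Amh-pa1-/- replicate 1 (0.059), and the estimate without each library in turn ran from −1.91 to −1.23. At these counts Cox7a1 stood at 4.40 and 1.51 CPM per kb of transcript and Cox7a2 at 50.5 and 57.7 CPM per kb. Cox7a2 had 41.1 ± 0.932 and 47.0 ± 2.01 CPM (log2 fold change 0.19, adjusted p = 0.060). The macrophage, Leydig cell and endothelial marker sums given above were also lower in the Amh-pa1-/- libraries (of 4 tested endothelial markers Cdh5 and Pecam1 were lower and Vwf was higher), while of the 5 tested myoid markers Acta2 was higher and 4 did not pass.

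**Figure D3:**
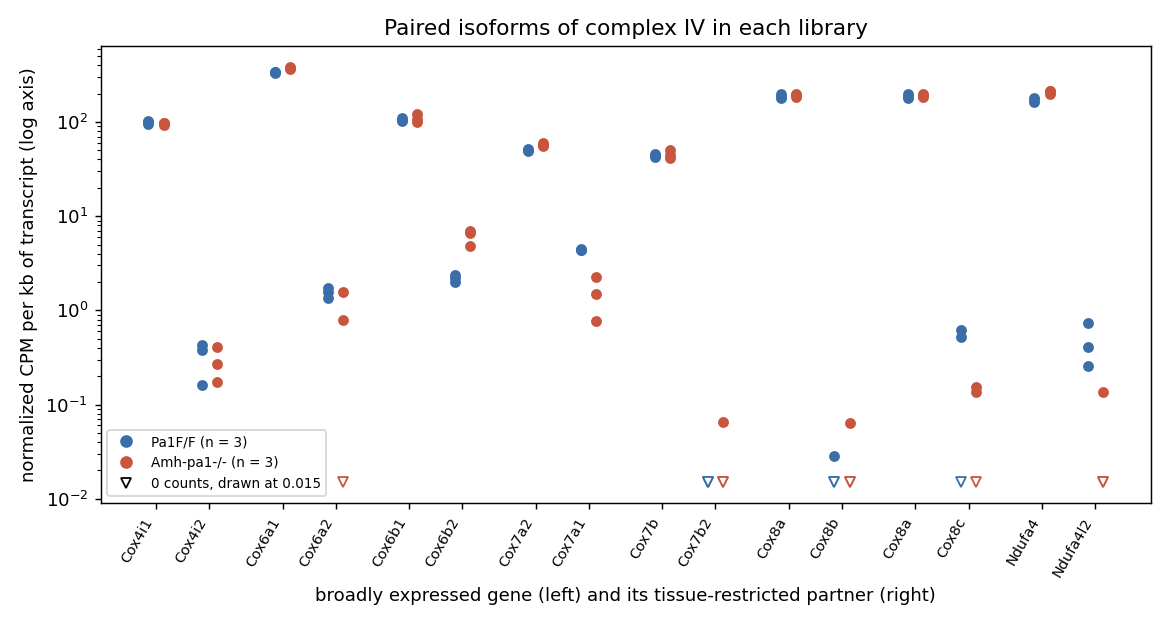
Normalized CPM per kb of transcript (log axis) of broadly expressed complex IV genes and their tissue-restricted partners in each library (blue, Pa1F/F; red, Amh-pa1-/-; n = 3 each); open triangles at the foot mark libraries with 0 counts. Each broad isoform lies above its partner in every library, and Cox6b2 and Cox7a1 are the partners whose genotypes separate with an adjusted p under 0.05.

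The other tissue-restricted partners had low counts. Cox6a2, the muscle partner of Cox6a1, had 1.05 ± 0.122 and 0.534 ± 0.536 CPM, and its log2 fold change of −1.003 had an adjusted p of 0.35. Cox4i2 had between 2 and 5 counts in every library. Cox8c, known from testis, had 5, 4 and 0 counts in Pa1F/F and 0, 1 and 1 in Amh-pa1-/- libraries, and Cox7b2, also a testis gene, had 0 counts in 5 libraries and 2 in Amh-pa1-/- replicate 3. Cox8b was at 0 in 4 libraries. Ndufa4l2, which replaces Ndufa4 in hypoxic cells, had 4, 6 and 10 counts in Pa1F/F and 2, 0 and 0 in Amh-pa1-/- libraries. A count of 0 allows up to 3 counts, or 0.185 to 0.227 CPM before normalization at these depths. Ndufa4l2 was above this limit in every Pa1F/F library and its groups did not overlap (exact two-sided permutation p = 0.1, the smallest possible), but it overlaps Shmt2. For the other 4 nuclear-encoded members left untested a difference was not detectable at this depth.

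Of the broad isoforms, Ndufa4 was higher, with 91.1 ± 5.42 and 110 ± 4.05 CPM (log2 fold change 0.27 ± 0.06 SE, adjusted p = 0.016), a call lost without Pa1F/F replicate 1 (adjusted p = 0.060) or Amh-pa1-/- replicate 1 (0.061). Ndufa4 is named as a complex I subunit but is a component of complex IV. Cox5b, a zinc-binding subunit, rose by 0.23 (84.7, 87.2 and 81.5 CPM in the controls and 104, 98.2 and 95.05 CPM in the knockout libraries, adjusted p = 0.022), lost its call without any of 4 libraries (Pa1F/F replicates 1 and 3 and Amh-pa1-/- replicates 1 and 2), and has a near-identical copy over 55.6% of its transcript. Cox6a1 was at 194 ± 2.48 and 214 ± 6.54 CPM (0.14, adjusted p = 0.056), Cox4i1 at 78.0 ± 2.83 and 75.6 ± 1.72 CPM (−0.05, adjusted p = 0.56), Cox7b at 44.4 ± 1.82 and 46.4 ± 4.61 CPM (0.06, adjusted p = 0.62) and Cox8a at 105 ± 4.86 and 108 ± 4.30 CPM (0.04, adjusted p = 0.60). The estimates of these 4 genes all lay within 0.5 of no change.

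Complex V is the ATP synthase. Of its 15 nuclear-encoded subunits, 1 was higher, 1 was lower (6.67% each, beside 18.2% and 17.1% of all tested genes) and 13 did not pass. The confidence interval of 14 (93.3%) lay within 0.5 on the log2 scale, beside 35.3% of all tested genes and 51.5% of genes with a mean of at least 10 CPM. The catalytic subunit Atp5b stood at 689 ± 26.1 and 720 ± 35.0 CPM (log2 fold change 0.06, adjusted p = 0.50). Atp5d, in the central stalk, was at 87.5, 86.8 and 86.1 CPM in the controls and at 103, 99.3 and 93.5 CPM in the knockout libraries (log2 fold change 0.18 ± 0.06 SE, adjusted p = 0.041). Atp5j, the coupling factor of the peripheral stalk, was at 85.9, 77.9 and 79.6 CPM and at 72.5, 70.2 and 68.6 CPM (−0.20 ± 0.06 SE, adjusted p = 0.041). Atp5d kept its call only without Amh-pa1-/- replicate 3 and Atp5j only without Pa1F/F replicate 2. Both overlap another gene, Cbarp and Gabpa.

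Atp5s and Atp5sl carry the name but do not encode subunits of the enzyme itself. Atp5s rose from 6.33 ± 0.407 to 9.21 ± 0.651 CPM (log2 fold change 0.54 ± 0.13 SE, adjusted p = 0.017), and Atp5sl fell from 20.8 ± 1.29 to 16.0 ± 0.324 CPM (−0.37 ± 0.09 SE, adjusted p = 0.018). The call of Atp5s was kept under 3 of 6 omissions of a library (lost without Pa1F/F replicate 2 or 3 or Amh-pa1-/- replicate 1) and that of Atp5sl under 2, those of Pa1F/F replicate 3 and Amh-pa1-/- replicate 3.

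The mitochondrial genome encodes core subunits of 4 complexes: 7 of complex I, 1 of complex III (mt-Cytb), 3 of complex IV and 2 of complex V. Its genes are transcribed as long polycistronic RNAs, mt-Nd6 from one strand and the other protein-coding genes from the other strand. These RNAs are then cut into shorter ones. The levels in the count table were nonetheless very uneven. In Pa1F/F cells mt-Co1 stood at 12490 CPM per kb of transcript, mt-Nd1 at 2984, mt-Cytb at 2948, mt-Nd2 at 1704, mt-Nd5 at 1654, mt-Nd4 at 1205 and mt-Nd6 at 545 CPM per kb. In contrast, mt-Co2 stood at 91.8, mt-Co3 at 26.0, mt-Atp6 at 24.2, mt-Nd3 at 2.86, mt-Nd4l at 2.23 and mt-Atp8 at 0.410 CPM per kb. The 6 members of the second group were the 6 whose transcripts have a copy of at least 99% identity in the nuclear genome (GRCm39) over 90% or more of their length. Some of the genes overlap: mt-Nd4l and mt-Nd4, mt-Nd5 and mt-Nd6, and mt-Atp6 with both mt-Atp8 and mt-Co3. How reads in the overlaps were counted is not given in the sources used here, and their part in the levels was not tested.

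**Figure D4:**
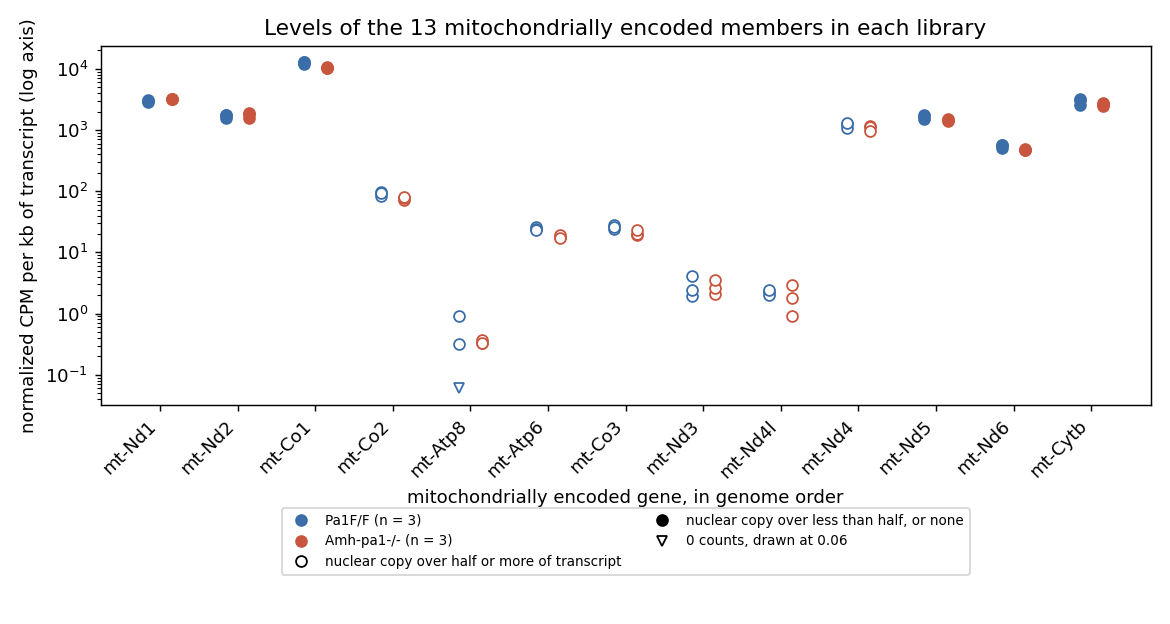
Normalized CPM per kb of transcript (log axis) of the 13 mitochondrially encoded members in genome order, with 1 point per library (blue, Pa1F/F; red, Amh-pa1-/-; n = 3 each; the triangle marks 0 counts). Open symbols are members with a near-identical nuclear copy over 50% or more of the transcript; apart from mt-Nd4 these all lie below the filled symbols in both genotypes.

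These copies lie together on chromosome 1. They cover 100% of mt-Co2, mt-Co3, mt-Atp6, mt-Atp8 and mt-Nd4l, 99.1% of mt-Nd3, 63.6% of mt-Nd4 and 31.3% of mt-Co1, and no such copy was found for mt-Nd1, mt-Nd2, mt-Nd5, mt-Nd6 and mt-Cytb. A read from a fully covered gene matches 2 places equally well. How the counting treated such reads is not given in the sources used here, and the part of the copies in the low counts was not tested. The stretches below (GENCODE M39 transcripts on GRCm39) show 3 mitochondrial genes beside their chromosome 1 copies, with capitals at bases that differ. Each stretch is 60 bases long and starts at the first base of the transcript, except for mt-Co1, where it starts at base 1054, the first base of the copy.
mt-Co2: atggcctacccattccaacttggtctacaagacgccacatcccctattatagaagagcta
Gm28661: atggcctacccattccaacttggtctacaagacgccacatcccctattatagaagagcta
mt-Nd3: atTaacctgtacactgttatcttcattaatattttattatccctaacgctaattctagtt
Gm28438: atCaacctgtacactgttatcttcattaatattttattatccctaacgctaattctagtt
mt-Co1: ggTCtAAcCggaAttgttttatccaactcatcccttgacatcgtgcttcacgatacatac
Gm29216: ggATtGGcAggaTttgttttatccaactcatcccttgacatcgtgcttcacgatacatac

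mt-Co2 and Gm28661 were identical over all 681 aligned bases, mt-Nd3 and Gm28438 differed at 1 of 345, and mt-Co1 and Gm29216 at 6 of 492, all in the printed stretch. The copies had counts of their own. Gm28661 had 596, 463 and 498 counts in the Pa1F/F and 390, 312 and 423 counts in the Amh-pa1-/- libraries (log2 fold change −0.39, adjusted p = 0.033), and mt-Co2 had 1082, 876 and 898 and 753, 682 and 797 counts. Gm28438 moved the other way, with 39, 40 and 30 counts against 151, 150 and 54 (1.80, adjusted p = 0.016). Gm10925, the copy of mt-Atp6, had 836, 731 and 804 against 1899, 512 and 612 counts, so that Amh-pa1-/- replicate 1 stood far above the other libraries. These 3 copies were chosen after their values were seen.

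Of the mitochondrially encoded members called lower, mt-Atp6, a subunit of the proton channel of ATP synthase, was at 17.5, 16.3 and 15.6 CPM in Pa1F/F and at 12.3, 13.2 and 11.7 CPM in Amh-pa1-/- cells (log2 fold change −0.41 ± 0.10 SE, adjusted p = 0.021). It lost its call without Pa1F/F replicate 1 (adjusted p = 0.083) or Amh-pa1-/- replicate 1 (0.069). mt-Co2, which receives electrons from cytochrome c, was at 66.7, 57.7 and 64.0 CPM and at 49.99, 52.2 and 54.3 CPM (−0.27 ± 0.08 SE, adjusted p = 0.034), and lost its call without Pa1F/F replicate 1 (0.13) or 3 (0.11) or Amh-pa1-/- replicate 1 (0.12) or 2 (0.11). Both have a full-length nuclear copy, and none of the 6 members with a copy over less than 50% of the transcript was called in this edgeR fit. Some of the 6 were called under alternatives. mt-Co1 was lower by DESeq2 and limma-voom, and mt-Nd6 with at least 10 counts in every library. Without Pa1F/F replicate 2, mt-Nd5, mt-Nd6 and mt-Co1 were lower. The median log2 fold change of those 6 was −0.17.

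mt-Co1, the catalytic core of complex IV, carried most of the mitochondrial counts. It had 19750, 18360 and 19800 CPM in Pa1F/F and 16000, 16260 and 16140 CPM in Amh-pa1-/- cells, so that every knockout library was below every control library. The log2 fold change was −0.26 ± 0.15 (SE, 95% confidence interval −0.62 to 0.11, adjusted p = 0.23) by edgeR, and the call depended on the tool, with an adjusted p of 0.00063 by DESeq2's Wald test and of 0.021 by limma-voom. Without Pa1F/F replicate 2 the edgeR value was 0.041, and over all alternatives it ran from 4.9e-10, with both libraries that stand apart left out, to 0.67, with the close pairs summed, while the estimate stayed between −0.30 and −0.22. The lowest value is lowered by the choice of the libraries left out. mt-Co3, the third core subunit, was at 20.4 ± 1.59 and 16.3 ± 1.88 CPM (−0.32, adjusted p = 0.075).

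None of the 7 complex I genes of the mitochondrial genome passed the edgeR test with all libraries and the low count filter of filterByExpr. mt-Nd1, the first protein-coding gene after the ribosomal RNA genes, was at 2896, 2722 and 2949 CPM in Pa1F/F and at 3121, 3117 and 3059 CPM in Amh-pa1-/- cells, higher in every knockout library than in any control library, with a log2 fold change of 0.12 (adjusted p = 0.33). mt-Nd2 had 1769 ± 103 and 1840 ± 154 CPM (0.06, adjusted p = 0.68). mt-Nd4 (1660 ± 165 and 1477 ± 128 CPM), mt-Nd5 (3016 ± 260.3 and 2635 ± 113 CPM) and mt-Nd6 (283 ± 18.7 and 248 ± 3.57 CPM) had estimates of −0.17, −0.19 and −0.19. The lowest adjusted p among these 3 was 0.054, for mt-Nd6, whose groups did not overlap. Without Pa1F/F replicate 2, mt-Nd5 and mt-Nd6 were lower at the threshold (all genes, 14.0% lower). mt-Nd6 was also lower without Amh-pa1-/- replicate 3, and with all libraries when at least 10 counts in every library were required. With both libraries that stand apart left out mt-Nd4, mt-Nd5, mt-Nd6 and mt-Cytb were lower and mt-Nd1 and mt-Nd2 higher (all genes, 27.3% lower and 28.0% higher). With all libraries mt-Cytb was at 3373 ± 340 and 3037 ± 155 CPM (−0.15, adjusted p = 0.33). mt-Nd3 and mt-Nd4l were under 2 CPM in every library and their estimates of −0.05 and −0.24 had standard errors of 0.38 and 0.44. mt-Atp8 had 3, 1 and 0 counts in Pa1F/F and 1, 1 and 1 in Amh-pa1-/- libraries.

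Summed over the 13 genes, 3.33%, 2.995% and 3.34% of all counts fell on the mitochondrial protein-coding genes in the 3 Pa1F/F libraries and 2.83%, 2.87% and 2.86% in the 3 Amh-pa1-/- libraries. All knockout libraries were below all control libraries, and the ratio of the means was 0.886. The widest 95% Wilson interval of these shares was 0.0094 percentage points to either side, counting error only. The share of mt-Co1 alone was 1.92% ± 0.0913 and 1.62% ± 0.0382 of counts (SD, n = 3). The other 12 genes together held 1.35%, 1.18% and 1.37% in the Pa1F/F and 1.25%, 1.27% and 1.21% in the Amh-pa1-/- libraries. These ranges overlapped through Pa1F/F replicate 2, a library that stands apart, and did not overlap without it. mt-Co1 made up 59.1% to 60.7% of the mitochondrial protein-coding counts in Pa1F/F and 55.8% to 57.8% in Amh-pa1-/- libraries.

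The 95 nuclear-encoded members took 0.621%, 0.622% and 0.606% of counts in Pa1F/F and 0.650%, 0.627% and 0.639% in Amh-pa1-/- libraries. Counts on the mitochondrially encoded members were 5.36, 4.81 and 5.52 times those on the nuclear-encoded ones in the controls and 4.36, 4.58 and 4.48 times in the knockout libraries, again without overlap. No p is given for these sums. The mitochondrial ribosomal RNA genes, which are no members, took 0.0744% ± 0.00262 and 0.0679% ± 0.00919 of counts.

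**Figure D5:**
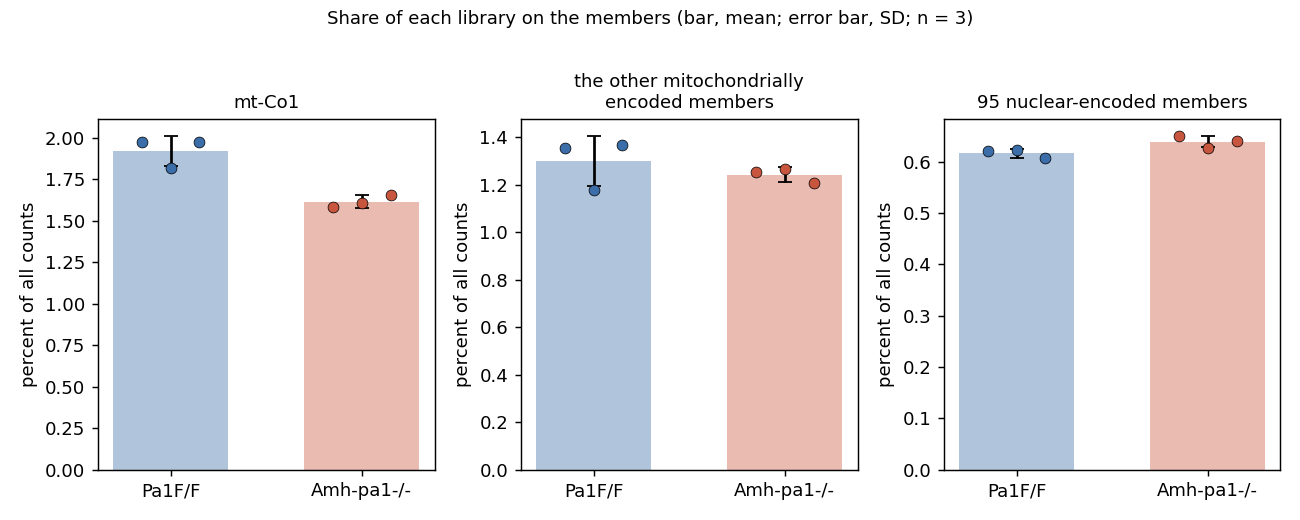
Percent of all counts of a library (y axis, from 0) on mt-Co1, on the other 12 mitochondrially encoded members and on the 95 nuclear-encoded members, with bars for the mean, error bars for the SD and 1 point per library (n = 3 per genotype). The mt-Co1 share is lower in every Amh-pa1-/- library, the ranges of the other 12 overlap through Pa1F/F replicate 2, and the nuclear-encoded share is slightly higher.

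Genes that act beside the respiratory chain were taken from lists outside the rule, and their counts are to be read beside the 18.2% of all tested genes that were higher and the 17.1% that were lower. Of 19 genes of mitochondrial DNA maintenance and transcription 18 were tested, of which 3 were higher and 2 lower. Polg, the catalytic subunit of the mitochondrial DNA polymerase, rose from 55.4 ± 2.54 to 76.5 ± 1.41 CPM (log2 fold change 0.46 ± 0.06 SE, adjusted p = 0.0019), and Tfam, which packages mitochondrial DNA and starts its transcription, was at 33.8 ± 2.03 and 41.9 ± 4.53 CPM (0.31, adjusted p = 0.049). Rnaseh1 was also higher (0.35). Lower were Twnk, the replicative helicase (−0.46, adjusted p = 0.016), and Polg2, the accessory subunit of the polymerase (−0.90, adjusted p = 0.045). Polrmt, the mitochondrial RNA polymerase, had 31.6 ± 1.504 and 29.3 ± 1.25 CPM (−0.11, adjusted p = 0.31).

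Of 13 tested regulators of mitochondrial biogenesis, Gabpb1 was higher (0.24, adjusted p = 0.041), and Nfe2l2, the oxidative stress factor (−0.28, adjusted p = 0.0090), and Sirt3, a mitochondrial deacetylase (18.6 and 10.1 CPM, −0.89, adjusted p = 0.0064), were lower. Of 37 tested assembly factors without the Nduf name, Coa6 (0.57) and Sdhaf3 (0.52) were higher and Cox11, Cox18, Ttc19 and Atpif1, the inhibitor of ATP synthase, were lower, with log2 fold changes of −1.502, −0.58, −0.29 and −0.67. Of 77 mitochondrial ribosomal protein genes, 6 were higher and 5 lower, below the shares of all genes in both directions, with a median of 0.05.

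The tricarboxylic acid cycle, which feeds electrons to complexes I and II, had 5 of 19 genes higher and none lower at the threshold (median log2 fold change 0.12). Idh3a, of the NAD-dependent isocitrate dehydrogenase, rose from 158 to 246 CPM (0.64 ± 0.05 SE, adjusted p = 0.00033), and Suclg2, Dlat and Sucla2 rose by 0.58, 0.43 and 0.34. Summed over the list, Pa1F/F libraries held 1795 to 1803 CPM and Amh-pa1-/- libraries 2008 to 2102 CPM. Under the alternatives the higher count of this list ran from 1, with the close pairs of libraries summed, to 9, with both libraries that stand apart left out, where 3 genes were also lower. Of all genes 4.43% were higher under the former, and 28.0% were higher and 27.3% lower under the latter.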

How the data were processed

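RNA-seq read counts per gene, as deposited by the authors without normalization, were used for 6 libraries, 3 of each genotype. Per the submitters' processing notes and the methods of the study, reads were aligned to GRCm38 with HISAT2 2.1.0 and counted with HTSeq 0.6.0, and the strand and multiple-match settings are not given in the sources used here. Other columns hold the authors' own comparison of the genotypes and were not used. Total counts lay between 13203757 and 16231443. Without molecular identifiers, intervals and floors (3 counts) cover counting error only.

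Low counts were removed by filterByExpr (at least 10 in enough libraries, 15 in total). TMM scaling and the quasi-likelihood test came from edgeR 4.0.16 (R 4.3.3), with genotype as the only term and Benjamini-Hochberg adjustment across 14919 genes. TMM centres most genes on no change. CPM are normalized by TMM. The SE is the absolute log2 fold change divided by the square root of F. Alternatives used DESeq2 1.42.0, limma 3.58.1, other scalings, filters and sets of libraries. The steps were tested on simulated counts. The study's methods name DEGseq for the test. Canonical transcripts (GENCODE M39) gave lengths and were matched to GRCm39 with BLAST 2.17.0, and a copy is a match of at least 99% identity over at least 100 bases outside the gene. Promoters are RefSeq windows. Python 3.11.15 drew the figures.

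Named are all mitochondrially encoded members, members past both thresholds, up to 10 nuclear-encoded members of lowest adjusted p in each direction, Sdh genes, Cyc1, Cycs and the paired isoforms; other genes were chosen after their values were seen. Members and lists (mitochondrial DNA maintenance, biogenesis regulators, assembly factors, tricarboxylic acid cycle, mitochondrial ribosomal proteins and cell type markers) were chosen with earlier results of these data known. Values of 1 member and of 1 listed gene are not reported here, though counts and medians include them.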

Additional observations from a re-analysis of the deposited data

How the results depend on the processing

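Over the alternatives, none of the 23 called members changed direction. The median log2 fold change lay between 0.05 and 0.12 for nuclear-encoded and between −0.26 and −0.15 for mitochondrially encoded members. Counts of calls moved more. With a replicate block, 4 nuclear-encoded members were higher and 3 lower, and 0 mitochondrially encoded members were lower (all genes, 12.8% higher and 12.6% lower). The replicate numbers correlated at 0.108, −0.164 and −0.179 across genotypes and do not pair the samples. With no low count filter, 3 nuclear-encoded and 0 mitochondrially encoded members were lower (all genes, 8.53%), and with library size only, 1 mitochondrially encoded member was. With at least 10 counts in every library, Cox7a1 was not tested and 1 member passed both thresholds, and against a log2 fold change of 1 (glmTreat) 0 did. With the close pairs summed, 2 nuclear-encoded members were higher, 0 nuclear-encoded and 0 mitochondrially encoded members were lower, and 1 member passed both thresholds (all genes, 4.43% higher and 4.22% lower). With both libraries that stand apart left out, 34 and 9 nuclear-encoded and 2 and 8 mitochondrially encoded members were higher and lower, and the nuclear-encoded median was 0.12. Without 1 library, 4 to 19 nuclear-encoded members were higher and 2 to 5 lower, 0 to 5 mitochondrially encoded members were lower, 1 to 2 members passed both thresholds, and the median difference lay between −0.35 and −0.22. The causes of these changes were not tested.

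Alternatives chosen after seeing the data were members with a nuclear copy over under 50% of the transcript, of which 0 mitochondrially encoded ones were lower by edgeR with all libraries and filterByExpr, and nuclear-encoded members with neither a copy nor an overlapping gene, whose median was 0.12. Estimates of uncalled genes near 0 changed sign. Without 1 library they lay between −0.27 and 0.32 for mt-Nd3, −0.31 and 0.10 for mt-Nd4l, −0.012 and 0.067 for Sdha, −0.0030 and 0.099 for Cyc1, −0.012 and 0.13 for Cox6b1 and −0.014 and 0.13 for Cox7b, and with both libraries that stand apart left out mt-Nd3 was at 0.10 and mt-Nd4l at 0.0285. The counts of Cox7a1, Cox6b2 and the members under 2 CPM limit what can be seen of them.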
